A study of Mus musculus with 2 samples.

Results

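The genes described here are 9 members of the interleukin-1 (IL-1) family and the inflammasome, chosen by symbol from the 32285 genes measured in lung cells of mice bearing 4T1 mammary tumors. They are the agonists Il1a and Il1b, the antagonist Il1rn, the receptor chains Il1r1 and Il1rap, the decoy receptor Il1r2, the inflammasome sensor Nlrp3, and the inflammatory caspases Casp1 and Casp4. Female BALB/cJ mice aged 12 weeks were inoculated with 100000 4T1 cells, a transplantable mouse mammary carcinoma line, and received intravenous saline or cargo-free poly(lactide-co-glycolide) nanoparticles (NPs). They were given 5 doses, 1 every 3 days. On day 14 the lungs of 4 mice in each condition, by the labels, were pooled, digested, depleted of red cells and sequenced as 1 droplet single-cell library. The study's methods give another number of mice. Both groups carried tumors, and tumor-free mice were not analysed here. With 1 library per condition there is no replicate, so no difference between saline and NP carries a test. All intervals are 95% intervals for counting error only.

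IL-1α and IL-1β both signal through the receptor IL-1R1, which needs the accessory protein IL-1RAP to pass the signal on to NF-κB. The receptor antagonist encoded by Il1rn occupies IL-1R1 without signaling, and IL-1R2 binds the agonists but lacks a signaling domain. IL-1β is made as an inactive precursor that caspase-1 cleaves inside an inflammasome such as the one built by NLRP3, and caspase-11, the product of mouse Casp4, senses intracellular lipopolysaccharide. Transcript counts cannot show cleavage or secretion of these proteins. In the metastatic lung, neutrophils and monocytes are known as major sources of IL-1β.

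The agonist genes lie side by side on chromosome 2 (GRCm38). Il1a spans 129299610 to 129309972 and Il1b spans 129364570 to 129371139, both on the minus strand. Il1rn lies on the plus strand of the same chromosome, from 24336853 to 24351494. The receptor genes Il1r2 (40074079 to 40125231) and Il1r1 (40225080 to 40317257) are neighbors on chromosome 1, and Il1rap spans 26581704 to 26730117 on chromosome 16. Nlrp3 is on chromosome 11, from 59541568 to 59566956. Casp1 (5298517 to 5307265) and Casp4 (5308828 to 5336783) follow each other on the plus strand of chromosome 9, and counts of neighboring genes on 1 strand rest on how reads past a gene's end were assigned.

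The 250 bases before the transcription start are shown for both agonists, for the antagonist and for Casp4, because these are the members whose levels the comparisons below turn on. The sequences are RefSeq promoters of GRCm38.p6, written 5′ to 3′ in the direction of transcription. Capitals mark a TATA box in Il1a and Il1b and a pair of overlapping κB decamers in Casp4. The windows are chr2:129309973-129310222 (minus strand) for Il1a, chr2:129371140-129371389 (minus strand) for Il1b, chr2:24336610-24336859 (plus strand) for the first of 3 Il1rn starts, and chr9:5308599-5308848 (plus strand) for Casp4.
Il1a: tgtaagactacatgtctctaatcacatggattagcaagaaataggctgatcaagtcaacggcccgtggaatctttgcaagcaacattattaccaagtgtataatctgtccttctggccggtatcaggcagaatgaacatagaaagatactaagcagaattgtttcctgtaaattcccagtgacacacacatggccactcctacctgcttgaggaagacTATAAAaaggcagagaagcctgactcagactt
Il1b: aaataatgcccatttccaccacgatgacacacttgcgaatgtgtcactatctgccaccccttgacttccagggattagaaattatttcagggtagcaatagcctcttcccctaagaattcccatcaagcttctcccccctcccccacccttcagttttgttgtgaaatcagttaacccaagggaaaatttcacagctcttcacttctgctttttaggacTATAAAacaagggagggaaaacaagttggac
Il1rn: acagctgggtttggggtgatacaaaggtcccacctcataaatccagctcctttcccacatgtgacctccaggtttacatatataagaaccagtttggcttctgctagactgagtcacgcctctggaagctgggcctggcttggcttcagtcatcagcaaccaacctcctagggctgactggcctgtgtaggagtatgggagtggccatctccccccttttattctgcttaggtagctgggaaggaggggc
Casp4: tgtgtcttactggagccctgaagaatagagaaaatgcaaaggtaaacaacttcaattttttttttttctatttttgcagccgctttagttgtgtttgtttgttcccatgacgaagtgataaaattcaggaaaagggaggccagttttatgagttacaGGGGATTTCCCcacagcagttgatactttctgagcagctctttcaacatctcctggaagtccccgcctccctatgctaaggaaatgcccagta
The motifs were searched on both strands of 14 such windows, which cover all 9 genes. The TATA box, TATAAA, began 32 bases before the Il1a start and 31 bases before the Il1b start, and 12.4% of 32851 windows over all genes hold it. The κB decamer, the consensus site of NF-κB, stood in 4 of the 14 windows against 3.9% of all windows. It began 93 and 92 bases before the Casp4 start in overlapping matches, and the same pair was counted again from a second Casp4 start. The other κB matches began 186 bases before an Nlrp3 start and 232 bases before an Il1r1 start. A GAS element, TTCNNNGAA (7.02% of all windows), lay in the Il1r2 window, and a C/EBP core, TTGCNNAA (9.56%), lay in an Il1r1 window. The ISRE core GAAANNGAA, found in 7.13% of all windows, was in none of the 14. These matches are letters in a window and no evidence of binding.

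Barcodes with 500 to 5000 detected genes and less than 7.5% mitochondrial UMIs were kept as cells. This left 8662 saline and 8333 NP cells, with 77814108 and 72383286 unique molecular identifiers (UMIs, each standing for 1 captured transcript molecule). The median was 6474.5 UMIs and 1679.5 detected genes per saline cell, and 6008 UMIs and 1727 genes per NP cell. Cells were clustered without the 9 members, and clusters were named from markers as neutrophil-like, monocyte-like and so on, shortened below to the cell type. Most defining markers were detected more often in the class they name than in other cells. Ccr2 was detected in 95.8% of saline monocytes and 7.87% of other saline cells. Neutrophils made up 65.7% of saline cells and 38.5% of NP cells, monocytes 7.4% and 13%, and endothelial cells 3.44% and 13.5%. The study's own classes gave endothelial shares that were close between the conditions. A cluster led by Aif1, Ms4a6d and Cfb, which took no cell type name, held 140 saline and 421 NP cells. The neutrophil calprotectin gene S100a8 was detected in 97.6% of saline and 86.1% of NP cells outside the neutrophils, so neutrophil RNA reached most droplets. The libraries shared 21 cell barcodes.

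A level is the number of UMIs of a gene per 1000000 UMIs of all genes in the same class and library, written CPM. The reads come from transcript ends, so levels are compared between classes and not between genes. Over all kept cells, Il1b, the gene of the main secreted agonist, stood at 5244 CPM in saline and 4145 CPM in NP. Il1r2 was also lower in the NP library, at 58.4 against 101 CPM, as was Il1rap, at 35.2 against 50.7 CPM. Il1a was higher, at 13.5 against 4.81 CPM, a log2 ratio of 1.49 (1.32 to 1.67). Il1r1 stood at 3.34 against 1.70 CPM, Casp1 at 70.9 against 52.5 CPM and Il1rn at 50 against 37.8 CPM. Nlrp3 (53.1 and 55.2 CPM) and Casp4 (101 in both) were close between the libraries, and the sign of their ratio turned in 5 and 6 of 12 alternative settings. Il1a was the only member at least 2-fold higher in NP, and none was at least 2-fold lower. Among all 14250 genes with at least 50 UMIs, 13.6% were at least 2-fold higher and 1.24% at least 2-fold lower. The median log2 ratio of genes with at least 200 UMIs was 0.37 over all cells, −0.11 in neutrophils and −0.02 in monocytes. Relative to this median, Il1b over all cells stood at −0.71, Casp4 at −0.38 and Nlrp3 at −0.32. Casp1 stood at 0.06 and Il1rn at 0.03, so their higher values over all cells were close to that of the median gene. Il1a stood at 1.12, Il1r1 at 0.61, Il1rap at −0.90 and Il1r2 at −1.17.

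**Figure D1:**
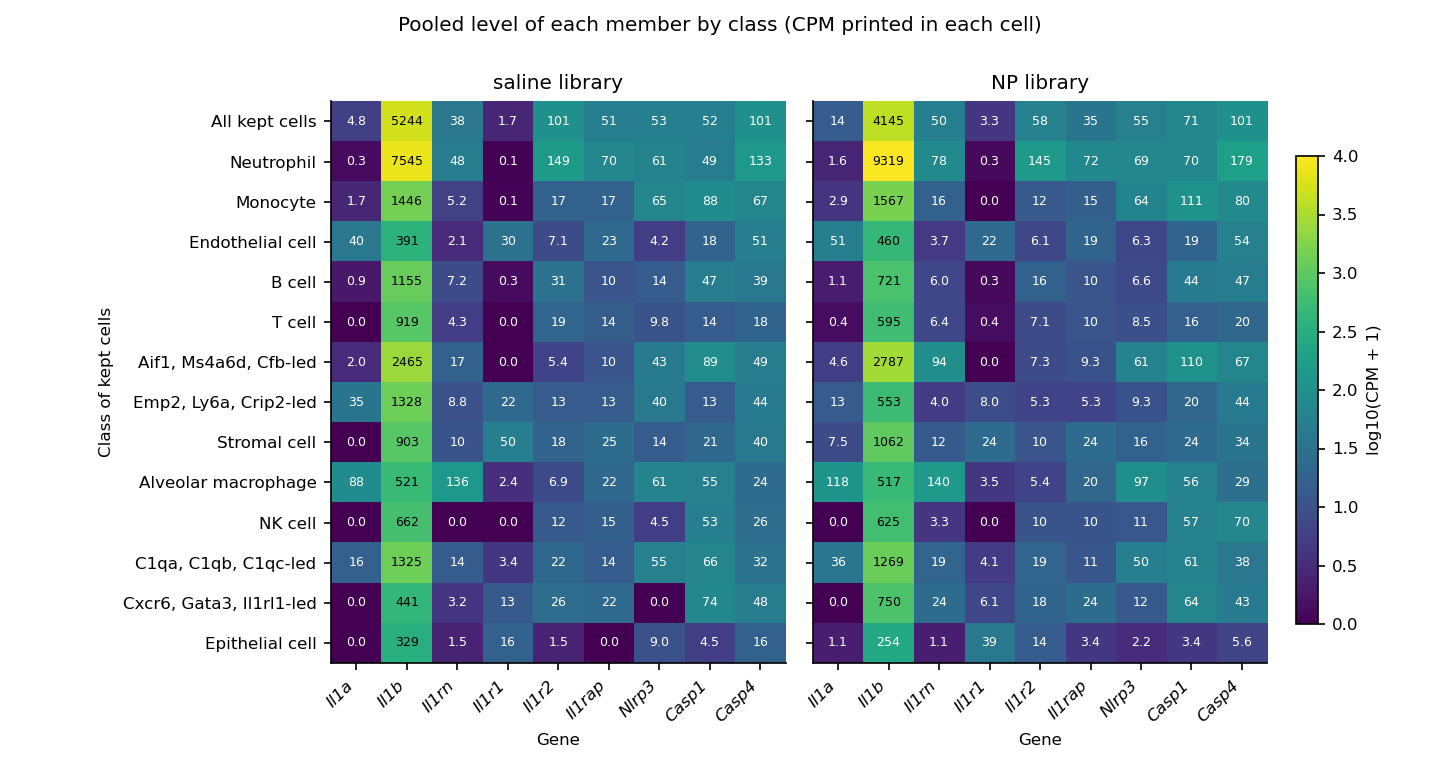
Heat map of the level (CPM, color on a log scale) of the 9 members in all kept cells and in 13 cell classes, with the saline and NP libraries side by side. Il1b, Il1r2, Il1rap and Casp4 are highest in neutrophils in both libraries, Il1a and Il1rn in alveolar macrophages, and Il1r1 outside the leukocytes.

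Il1b was abundant in neutrophils. It stood at 7545 CPM (7521 to 7570) in saline and 9319 CPM (9281 to 9356) in NP. It was detected in 97.6% (97.2 to 98.0) and 95.5% (94.7 to 96.2) of these cells, against 34.6% and 36% of epithelial cells. The epithelial level of 329 and 254 CPM exceeded the 201 and 213 CPM that their S100a8 would bring. The median neutrophil had 6042 UMIs in saline and 5321.5 in NP, and the median saline epithelial cell 12610.5. The log2 ratio in neutrophils was 0.30 (0.30 to 0.31), the opposite direction to that over all cells. With cells of at least 800 detected genes clustered anew, only 4700 saline and 1602 NP cells took the neutrophil name, and the ratio was −0.28. With the classes kept as they were, that limit gave 0.30. No other class shown reached the neutrophil level. The Aif1-led cluster stood at 2465 and 2787 CPM and monocytes at 1446 and 1567 CPM. By the lower of their S100a8 and S100a9 ratios, average neutrophil RNA would bring 125 and 72.1 CPM of Il1b to the monocytes. This estimate is no upper limit here or below, because Il1b differed widely between neutrophil clusters. The origin of the remaining Il1b was not tested. The C1qa, C1qb and C1qc-led cluster, at 1325 and 1269 CPM, was below monocytes beyond counting error in both libraries.

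In lymphocytes part of the Il1b level could be neutrophil RNA. B cells held 1155 CPM in saline and 721 CPM in NP, and their S100a8 share would bring 846 and 571 CPM. Most of it lay in 1 B cell cluster of 54 saline and 46 NP cells, whose next highest marker score was that of neutrophils. This cluster held 3441 of the 3990 saline and 2407 of the 2741 NP UMIs, at 5109 and 4658 CPM, while the main B cell cluster held 134 and 55.9 CPM. NK cells held 662 and 625 CPM, of which 289 and 554 CPM could be neutrophil RNA. T cells held 919 and 595 CPM, and their S100a8 would bring 412 and 205 CPM. In the Ctla4 and Ikzf2-led T cell cluster Il1b was 2616 against 1393 CPM, and in the larger T cell cluster 101 against 161 CPM. Barcodes with under 50 UMIs, which hold free RNA, carried Il1b at 4748 CPM in saline and 3715 CPM in NP. In the Emp2, Ly6a and Crip2-led cluster Il1b was 1328 CPM in saline and 553 CPM in NP, a log2 ratio of −1.26. There, 2.86% of tested genes were at least 2-fold higher and 2% at least 2-fold lower, and S100a8 and S100a9 stood at 7.87% of the neutrophil level in saline and 2.15% in NP.

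**Figure D2:**
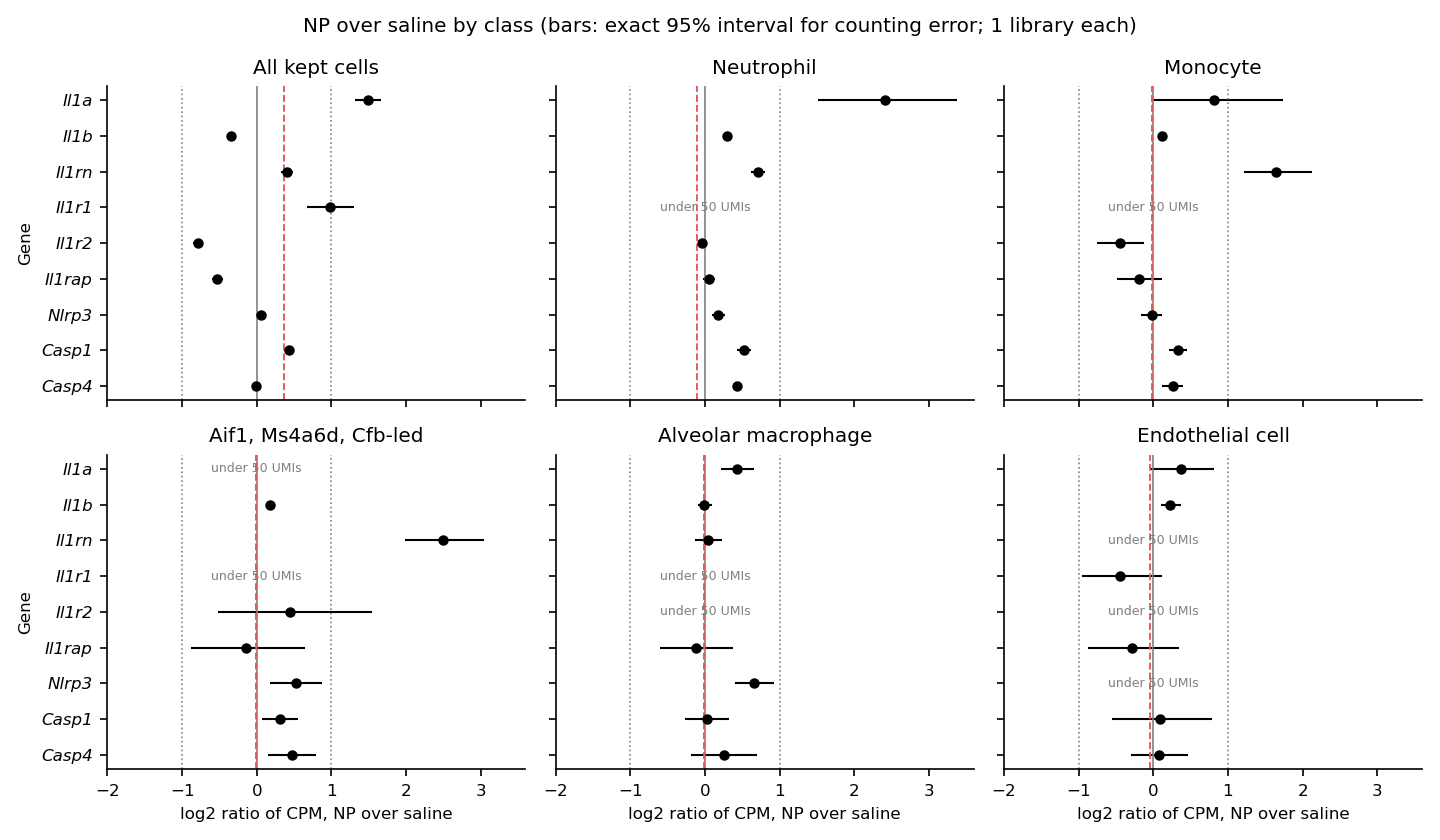
Log2 ratio of NP over saline for the 9 members in all kept cells and 5 classes, with 95% counting intervals. Dotted lines mark 2-fold in either direction and the red dashed line the median of all genes. The neutrophil value of Il1b is 0.30 and that over all cells −0.34, and Il1rn is past 2-fold in monocytes and the Aif1-led cluster.

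Il1a had another distribution than Il1b. Alveolar macrophages, the resident phagocytes of the airspace, held it at 87.6 CPM (77.2 to 99.1) in saline and 118 CPM (108 to 129) in NP, in 57% (49.0 to 64.6) and 65.8% (59.1 to 72) of cells. T cells, at 0% and 0.27%, had next to none. Endothelial cells followed at 39.5 and 51.0 CPM. Within them, the cluster led by Ednrb, Car4 and Igfbp7 (32 saline and 152 NP cells) stood at 224 and 221 CPM. The C1qa, C1qb and C1qc-led cluster had 16.0 CPM in saline and 36.2 CPM in NP, from 14 and 44 UMIs. This was a log2 ratio of 1.18, in a cluster where 2.06% of tested genes were at least 2-fold higher and 1.29% at least 2-fold lower. It did not hold when cells were thinned to 1000 UMIs, at −0.02.

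In neutrophils Il1a was near the limit of detection. They gave 15 UMIs in 5695 saline cells (0.307 CPM) and 41 UMIs in 3212 NP cells (1.63 CPM), and 10 of the 41 lay in 1 cell. The log2 ratio was 2.41 (1.52 to 3.37). Il1a was thereby the only one of 8 tested members at least 2-fold higher in neutrophils, and none was 2-fold lower. Of all tested genes in neutrophils 5.65% were at least 2-fold higher and 1.09% lower. Monocytes held 1.67 and 2.94 CPM.

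Il1rn, whose product blocks IL-1R1, was highest in alveolar macrophages, at 136 CPM (123 to 150) in saline and 140 CPM (129 to 152) in NP. In neutrophils it stood at 47.7 CPM (45.7 to 49.6) in saline and 77.9 CPM (74.4 to 81.4) in NP, a log2 ratio of 0.71 (0.62 to 0.80). The share of neutrophils with an Il1rn UMI was 28.2% (27.0 to 29.4) in saline and 37.3% (35.6 to 39.0) in NP. In endothelial cells, with a median of 3840 and 3842 UMIs, it was 0.671% and 1.06%. After thinning each cell to 1000 UMIs, which left out 9 saline neutrophils and 1 NP neutrophil, the neutrophil share was 5.94% (5.34 to 6.59) and 9.09% (8.12 to 10.1). With cells of at least 800 detected genes clustered anew the log2 ratio was 0.18, and with the classes kept it was 0.71. In monocytes it was 5.21 CPM (3.87 to 6.87) against 16.4 CPM (14.4 to 18.5), a log2 ratio of 1.65 (1.21 to 2.12). Il1rn was the only one of 8 tested members past 2-fold in monocytes, where 2.23% of all tested genes were at least 2-fold higher and 0.761% at least 2-fold lower. The counting intervals of the libraries did not overlap in neutrophils or monocytes, while those of alveolar macrophages did. In neutrophils those of Il1b, Casp1 and Casp4 were apart as well. How many of all genes were apart in this way was not counted, so this is no test.

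The Aif1-led cluster showed the widest gap in Il1rn among classes with at least 50 cells in each library and 50 UMIs of the gene. It held 16.7 CPM (11.6 to 23.3) in saline and 93.9 CPM (86.6 to 102) in NP, a log2 ratio of 2.49 (1.99 to 3.04). Of the tested genes in this cluster 2.77% were at least 2-fold higher and 0.829% at least 2-fold lower, and Il1rn was the only one of 7 tested members beyond that limit. Clustering the phagocytes again set apart 2 saline and 31 NP cells led by Ccl5, Il4i1 and Fscn1, genes known from activated, migrating dendritic cells. Il1rn, which was not used for clustering, was among its 10 leading genes. These 31 NP cells held 375 Il1rn UMIs, or 699 CPM, with Il1b at 2217 CPM and Il1a at 44.7 CPM. Without its 25 NP cells of this kind, the Aif1-led cluster still stood at 16.7 against 40.2 CPM, a log2 ratio of 1.27 (0.75 to 1.83). That alternative was chosen after seeing the data. The sub-cluster led by Spon1, Aif1 and H2-Ab1, which took in 465 of the Aif1-led cells, had 137 saline and 399 NP cells. Its Il1rn was 17.7 against 35 CPM, a log2 ratio of 0.98 (0.46 to 1.54), just under 2-fold.

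Il1rn was also higher in NP in the other blood-borne phagocyte groups. The sub-cluster led by Cd300e and Eno3, genes known from patrolling monocytes, held 13 CPM in 91 saline cells and 40.9 CPM in 363 NP cells. Its Il1b was 1814 against 2407 CPM, a log2 ratio of 0.41. The larger monocyte cluster, with 546 saline and 721 NP cells, had Il1rn at 4.59 against 10.4 CPM, a log2 ratio of 1.18, while its Il1b was 1399 against 1275 CPM. The smaller monocyte cluster, with 95 saline and 363 NP cells, shared most of its cells with the Cd300e and Eno3-led sub-cluster. The values of this cluster and that sub-cluster are thus not separate observations. In the smaller monocyte cluster Il1rn was 13.6 against 39.6 CPM, a log2 ratio of 1.54. The monocyte ratio of 1.65 lies above both, as the smaller cluster, richer in Il1rn, made up more of the NP monocytes. The Plet1 and Ear1-led sub-cluster of alveolar macrophages held Il1a at 88.5 CPM in 150 saline cells and 123 CPM in 205 NP cells.

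**Figure D3:**
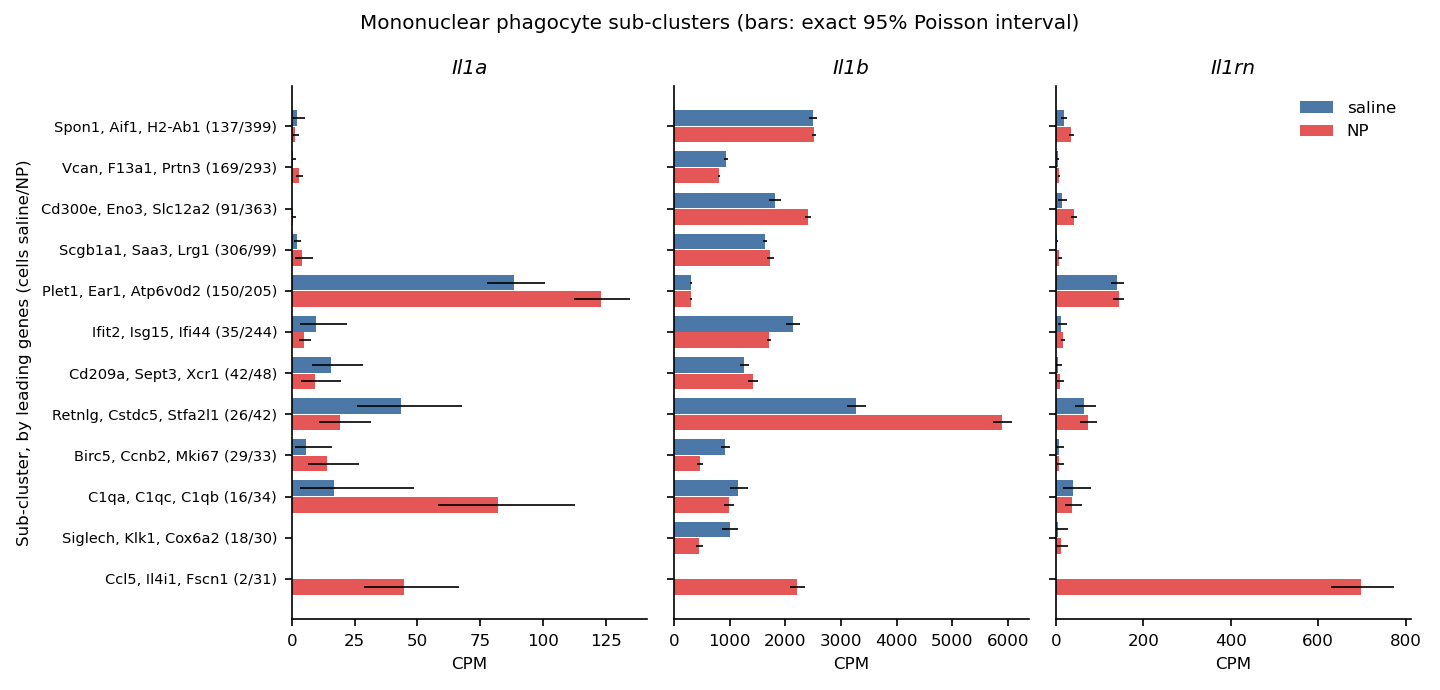
Levels (CPM) of Il1a, Il1b and Il1rn in the phagocyte sub-clusters, with the saline and NP bars side by side. The saline bar of the Ccl5-led sub-cluster is left out because it holds 2 cells. Il1rn reaches 699 CPM in its 31 NP cells, and Il1a is highest in the Plet1 and Ear1-led sub-cluster.

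The UMIs of antagonist and agonist can be set against each other within a class. Per 100 Il1b UMIs, neutrophils held 0.632 Il1rn UMIs in saline and 0.835 in NP. Monocytes held 0.36 and 1.05, and the Aif1-led cluster 0.677 and 3.37. Alveolar macrophages held 26.1 and 27.1. The ratio over all cells was 0.721 in saline and 1.21 in NP. These are ratios of transcript counts with different capture, so only their change between libraries can be compared. The change in the Aif1-led cluster rests in part on its 25 NP cells of the Ccl5, Il4i1 and Fscn1-led kind. Without them the cluster's NP UMIs fell from 614 to 245 for Il1rn and from 18215 to 17091 for Il1b.

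Il1r1, the signaling receptor, was highest in cells other than leukocytes. Stromal cells held it at 50.3 CPM (35.9 to 68.4) in saline and 24.3 CPM (17.7 to 32.5) in NP. Endothelial cells held 29.7 and 21.9 CPM, and the 52 saline and 50 NP epithelial cells 16.5 and 39.4 CPM, from 11 and 35 UMIs. In saline the stromal and endothelial intervals overlapped, and in NP those of epithelial, stromal and endothelial cells formed a chain in which neighbors overlapped. Neutrophils gave 3 UMIs in saline and 7 in NP, monocytes 1 and 0, and the Aif1-led cluster 0 in both, which allows up to 1.81 CPM in saline and 0.564 CPM in NP.

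The stromal Il1r1 ratio was −1.05 (−1.70 to −0.40) on the log2 scale, from 40 and 45 UMIs, and stayed past 2-fold in 11 of 17 alternative settings. In stromal cells 4.68% of tested genes were at least 2-fold higher and 2.11% at least 2-fold lower. Collagen genes pooled over these cells were lower too, Col1a1 from 653 CPM in saline to 336 CPM in NP and Col3a1 from 1179 to 509 CPM. Within the Inmt, Mfap4 and Tcf21-led stromal cluster of 93 saline and 138 NP cells, Il1r1 was 72.6 against 33.5 CPM, from 38 and 27 UMIs, a log2 ratio of −1.12 (−1.88 to −0.37). This cluster held 93 of the 130 saline and 138 of the 273 NP stromal cells. The make-up of the class thus differed too, and the part of this was not tested. The Hhip and Tagln-led cluster (25 and 78 cells) had 11.2 and 15.8 CPM, from 2 and 10 UMIs. The Gucy1a1 and Postn-led cluster (12 and 57 cells) had 0 and 19.4 CPM, from 0 and 8 UMIs. The Ednrb, Car4 and Igfbp7-led endothelial cluster had more Il1r1 than the endothelium as a whole, at 53.8 CPM in saline and 34.6 CPM in NP, and more Il1rap, at 85.3 and 51 CPM.

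Il1rap, the accessory chain, was highest in neutrophils, at 70.0 CPM in saline and 72.5 CPM in NP, a log2 ratio of 0.05 (−0.03 to 0.13). Il1r2, the decoy, was neutrophil-rich as well, at 149 CPM (145 to 152) and 145 CPM (140 to 150). Its log2 ratio in neutrophils was −0.04 (−0.10 to 0.02), so both genes were lower over all NP cells while close to level in the pooled neutrophils. With NP levels put into the saline mix of neutrophil clusters, Il1r2 changed by −0.27 and Il1rap by −0.08. Monocytes held Il1r2 at 16.7 and 12.3 CPM, a log2 ratio of −0.44 (−0.75 to −0.13), of which neutrophil RNA could bring 2.47 and 1.12 CPM. Over all cells there were 5970 Il1r2 UMIs per 100 Il1r1 UMIs in saline and 1746 in NP. T cells held Il1r2 at 19.3 CPM in saline and 7.06 CPM in NP, a log2 ratio of −1.45, from 63 and 20 UMIs. The Ctla4 and Ikzf2-led cluster held 59 of the 63 and 15 of the 20, at 55.7 and 15 CPM, and the larger T cell cluster stood at 1.82 and 2.73 CPM. Neutrophil RNA by S100a8 would bring 8.14 and 3.19 CPM to T cells as a whole. Of the genes tested in T cells 1.32% were at least 2-fold higher and 0.944% at least 2-fold lower.

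Nlrp3 was spread over the myeloid cells. Among classes with at least 50 cells in each library, its level was 61.1 CPM in saline and 96.7 CPM in NP alveolar macrophages, 60.9 and 69.0 CPM in neutrophils, and 64.6 and 63.6 CPM in monocytes. The saline intervals of these 3 classes overlapped, from 52.4 to 70.8 CPM in alveolar macrophages, and in NP alveolar macrophages stood above both. Their log2 ratio was 0.66 (0.40 to 0.92), and 0.19 to 0.68 over 17 alternative settings. No member was past 2-fold in alveolar macrophages, where 0.534% of genes were at least 2-fold higher and 0.38% lower. In B cells Nlrp3 was 13.6 CPM against 6.57 CPM (log2 ratio −1.05), of which neutrophil RNA could bring 6.83 and 4.23 CPM, with 0.801% of B cell genes at least 2-fold higher and 1.15% lower. The B cell cluster with the neutrophil score held 42 of the 47 saline and 15 of the 25 NP UMIs, and the main B cell cluster 1 in each library. In the 21 saline and 39 NP cells with basophil or mast cell markers, too few for the minimum of 50 cells, Nlrp3 stood at 178 CPM (121 to 253) and 449 CPM (373 to 537), from 31 and 121 UMIs.

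Casp1, the IL-1β-converting enzyme, was highest in monocytes and the Aif1-led cluster. Monocytes held 87.9 CPM (82.1 to 94.1) in saline and 111 CPM (106 to 116) in NP, and the Aif1-led cluster 88.8 and 110 CPM, with overlapping intervals between the 2 classes in each library. In neutrophils Casp1 was 48.6 CPM (46.7 to 50.6) against 69.9 CPM (66.7 to 73.3), a log2 ratio of 0.52 (0.43 to 0.61). Alveolar macrophages stood level at 55.2 and 56.1 CPM.

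Casp4, which encodes caspase-11, was highest in neutrophils, at 133 CPM (129 to 136) in saline and 179 CPM (174 to 185) in NP. The log2 ratio was 0.43 (0.38 to 0.49), and 58.6% (57.3 to 59.9) and 65.2% (63.5 to 66.8) of neutrophils had a UMI. In epithelial cells the share was 17.3% and 8%. Monocytes held 67.2 and 80.3 CPM (log2 ratio 0.26). Endothelial cells held 50.8 and 53.6 CPM, and none of their 6 tested members was past 2-fold, against 1.48% of endothelial genes higher and 0.852% lower. In NK cells Casp4 was 25.6 CPM in saline and 70.0 CPM in NP, a log2 ratio of 1.45. Neutrophil RNA could bring 5.08 and 10.7 CPM of it, 13 of the 63 NP UMIs lay in 1 cell, and the thinned value was −0.73. Of tested NK cell genes 1.08% were at least 2-fold higher and 1.08% at least 2-fold lower. Per 100 Casp1 UMIs there were 273 Casp4 UMIs in saline and 256 in NP neutrophils, and 76.4 and 72.6 in monocytes.

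Different clusters held most of the neutrophils in the 2 libraries, and every neutrophil value above is a sum over them. In saline, 28.5% of neutrophils were in the cluster led by Hist1h4i, Ccrl2 and Ptgs2, 29% in that led by Stfa2l1 and Saa3, and 22.8% in that led by Prok2, Retnlg and Mmp8. In NP these held 17.2%, 8.47% and 14.1%. The cluster led by the interferon-stimulated genes Rtp4, Oasl1 and Isg15 held 6.71% of saline and 28.6% of NP neutrophils, and that led by Rsad2, Ifit1 and Gbp5 held 1.04% and 16.7%. The Camp, Ltf and Ngp-led cluster of immature granule genes held 10.2% and 10.9%.

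Il1b varied more between neutrophil clusters than between libraries. It was 20609 CPM in saline and 22079 CPM in NP in the Hist1h4i-led cluster and 21400 and 22017 CPM in the Rsad2-led cluster. It was 13562 and 14904 CPM in the Rtp4-led cluster, 11670 and 14180 CPM in the Stfa2l1-led cluster and 4532 and 5131 CPM in the Prok2-led cluster. The Camp-led cluster held 821 CPM in saline and 472 CPM in NP. The log2 ratio within clusters ran from 0.04 to 0.28, apart from −0.80 in the Camp-led cluster. The last cluster, which also carried endothelial markers, had 7572 and 8040 CPM.

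Il1rn was higher in NP in all 7 neutrophil clusters, with log2 ratios of 0.19 to 0.57. In the Rsad2-led cluster it reached 148 CPM in saline and 216 CPM in NP, and in the Hist1h4i-led cluster 99.7 and 144 CPM. The interval included 0 in the Camp-led cluster (−0.15 to 0.53). Casp4 was highest in the Rsad2-led cluster, at 309 and 442 CPM, and its ratio was 0.43 in the Rtp4-led and −0.26 in the Camp-led cluster. The decoy Il1r2 went both ways, from 152 to 104 CPM in the Prok2-led cluster (−0.54) and from 162 to 203 CPM in the Rtp4-led cluster (0.33). Il1rap in the Camp-led cluster was 18.4 against 9.77 CPM, a log2 ratio of −0.91. By detected genes, the Il1b ratio was 0.46 in neutrophils with 500 to 800 genes, 0.09 with 800 to 1200, 0.18 with 1200 to 2000 and −0.47 with 2000 or more. The last of these groups held 21.2% of saline and 15.3% of NP neutrophils, and Casp4 stood at −0.23 (−0.35 to −0.12) in it. Il1rn was above 0 in all 4 groups, from 0.27 to 0.62. After thinning to 1000 UMIs, 50.9% of saline and 41.9% of NP neutrophils held UMIs of exactly 1 member and 9.53% and 12.6% those of 3.

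**Figure D4:**
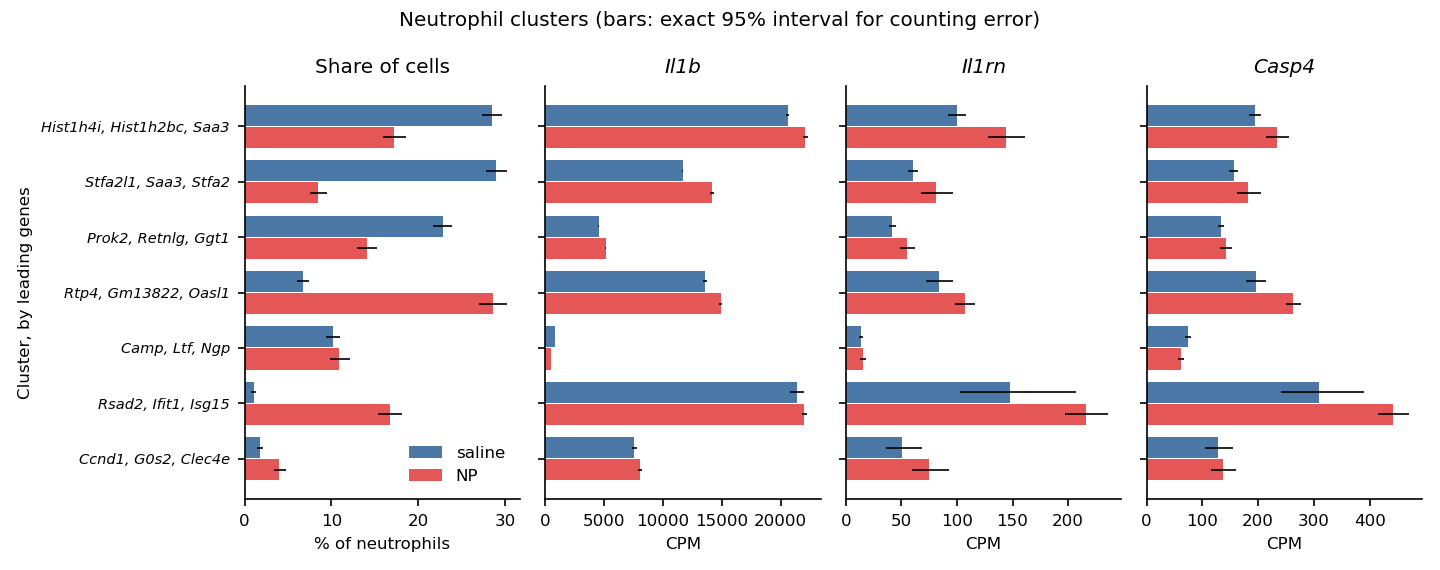
Share of neutrophils in each neutrophil cluster and the levels (CPM) of Il1b, Il1rn and Casp4 in it, for both libraries. The Rtp4-led and Rsad2-led clusters hold 28.6% and 16.7% of NP neutrophils, and Il1b lies between 472 and 22079 CPM across NP clusters.

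When the saline levels of each class were put into the class mix of the NP library, Il1b over all cells changed by −0.58 on the log2 scale. When the NP levels were put into the saline mix, it changed by 0.28. The lower Il1b over all NP cells thus went with the smaller share of neutrophil UMIs. Levels pooled within classes differed in direction, with Il1b higher in neutrophils and monocytes and lower in B cells (−0.68), T cells (−0.63) and the Emp2-led cluster (−1.26). The monocyte value includes a shift between clusters. Il1b was lower in the larger monocyte cluster (−0.13) and higher in the smaller one (0.38), which went from 95 saline to 363 NP cells. The T cell clusters went both ways as well (0.67 and −0.91). Il1r2 (−0.69 by mix and −0.07 by level) and Il1rap (−0.50 and 0.02) also followed the mix. Il1r1 gave 1.38 by mix and −0.05 by level. Casp4 gave −0.37 by mix and 0.40 by level, which left −0.01 over all cells. Il1rn gave −0.36 by mix and 0.68 by level, and Casp1 0.11 and 0.40. The same sums within neutrophils, over their clusters, gave Il1b 0.20 by cluster mix and 0.16 by level, Casp4 0.18 and 0.14, Casp1 0.27 and 0.21, and Il1rn 0.27 and 0.43. For Il1r2 they gave 0.04 by cluster mix and −0.27 by level, and for Il1rap 0.08 and −0.08. These sums rest on the class shares found here, which differ from the study's for endothelial cells. They describe the 2 libraries and carry no test.

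Neutrophils gave 90.3% of Il1b UMIs in saline and 78.2% in NP, with monocytes going from 3.4% to 8.16%. They gave 79.1% and 54.2% of Il1rn UMIs, and alveolar macrophages 13.4% and 16.6%. Il1a UMIs came from alveolar macrophages (67.9% in saline and 51.9% in NP) and endothelial cells (15% and 28.3%). Il1r1 UMIs came from endothelial cells (31.8% and 49.2%) and stromal cells (30.3% and 18.6%). Neutrophils gave 92.2% and 86.3% of Il1r2 UMIs and 82.1% and 61.9% of Casp4 UMIs. For Casp1 the neutrophil part was 58.1% in saline and 34.3% in NP, and the monocyte part 20.6% and 33.7%.

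**Figure D5:**
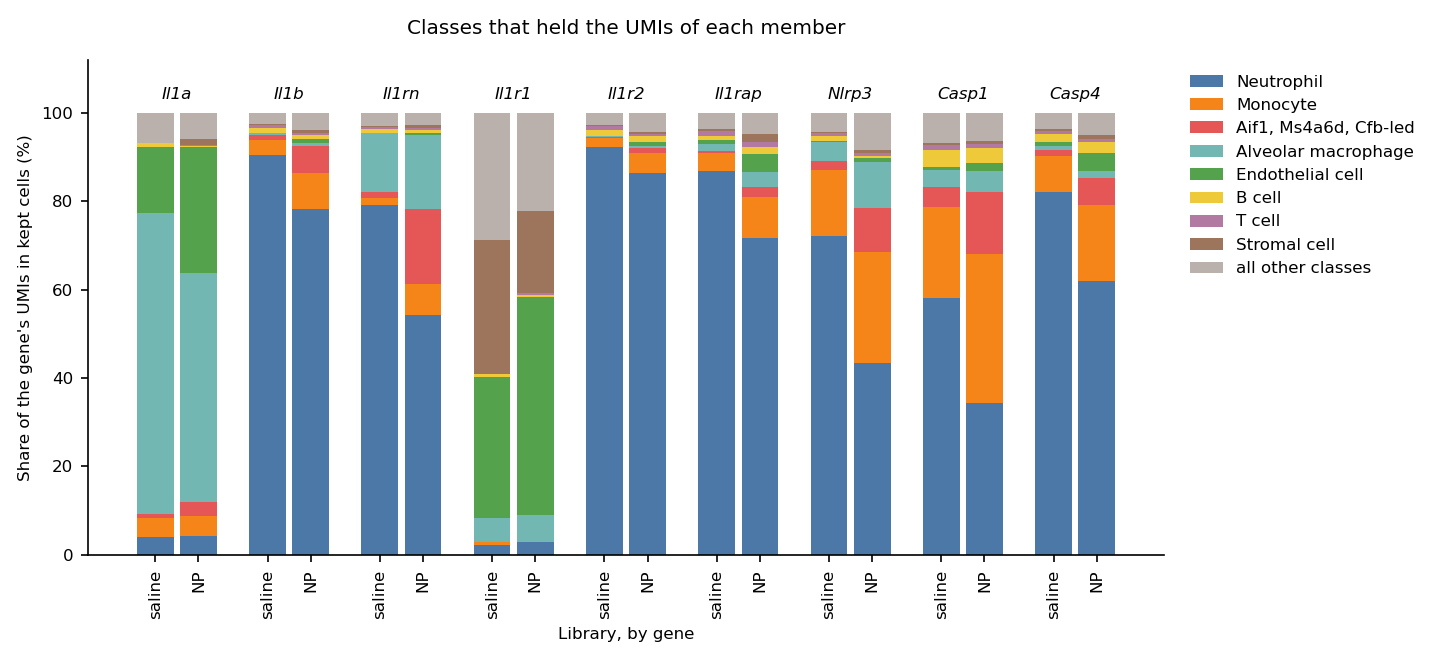
Share of each member's UMIs (percent, stacked) that came from each cell class in the saline and NP libraries. Neutrophils give 90.3% and 78.2% of Il1b UMIs, and endothelial cells 31.8% and 49.2% of Il1r1 UMIs.

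Other genes of the pathway were read as lists. The lists were written with earlier results of these data known, so their counts are description and no test. The guanylate-binding proteins, GTPases that open the way for caspase-11 to intracellular lipopolysaccharide and are themselves induced by interferon, had 4 listed genes in the data. All 4 were at least 2-fold higher in NP neutrophils, against 5.65% of all tested genes. Their median log2 ratio was 2.76, where the median over all tested genes was −0.10. Gbp2 was 39.4 CPM in saline and 213 CPM in NP neutrophils, Gbp7 28.3 and 120 CPM, Gbp3 3.07 and 26.1 CPM, and Gbp5 1 and 31 CPM. In monocytes 3 of the 4 were at least 2-fold higher (median 1.60), against 2.23% of all tested genes. In endothelial cells 4 of 4 were (median 1.61), against 1.48%. In alveolar macrophages 0 of 3 were (median 0.51), against 0.534%.

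The list of NF-κB priming and IL-1 target genes had 3 of 12 members at least 2-fold higher in neutrophils, with a median of 0.86, where 5.65% of all genes were. Nfkbia, the NF-κB inhibitor and target, was 362 CPM in saline and 843 CPM in NP, and Tnfaip3, another feedback inhibitor, 15.3 and 38.1 CPM. Cxcl1, a neutrophil chemoattractant, was 2.4 and 6.63 CPM. In monocytes 5 of 13 were higher and 1 lower, with a median of 0.63, where 2.23% of all genes were higher and 0.761% lower. In alveolar macrophages 2 of 12 were higher and 1 lower (median 0.24), against 0.534% and 0.38% of all genes. In endothelial cells 0 of 10 were higher and 1 lower (median 0.06), against 1.48% and 0.852%. Tnf stood at 64.5 CPM in saline and 16.3 CPM in NP alveolar macrophages, a value named after it had been seen. Cxcl2 was 75.5 CPM in saline and 455 CPM in NP monocytes, Nfkbia 167 and 367 CPM, and Tnfaip3 33.3 and 74.5 CPM. Lcn2, abundant in neutrophils too, was 217 and 86.7 CPM, while the summed neutrophil markers in monocytes were 6547 CPM in saline and 3455 CPM in NP.

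Of other inflammasome sensors and adaptors, 0 of 13 tested in neutrophils and 0 of 16 in monocytes were past 2-fold, with medians of −0.06 and −0.01. Of the IL-1 receptor signaling genes 0 of 11 were in either class, with medians of 0.03 and 0.13. Il18bp, which encodes a secreted binding protein that neutralizes IL-18, was 12.6 CPM in saline and 36.5 CPM in NP neutrophils, a log2 ratio of 1.54. Il18rap, a chain of the IL-18 receptor, was 13.5 and 5.7 CPM in monocytes. In monocytes Il18bp was 2.19 and 9.41 CPM, a log2 ratio of 2.10 (1.44 to 2.84), from 21 and 147 UMIs. It was the only one of 2 tested ligands and binding proteins of the family past 2-fold in either class, and of the other family receptors 0 of 3 were past it in neutrophils and 1 of 2 was lower in monocytes. Among proteases that can cleave IL-1 precursors 1 of 5 was at least 2-fold lower in neutrophils and 0 of 5 in monocytes. Beside all these counts, 5.65% of all tested genes were at least 2-fold higher and 1.09% lower in neutrophils. In monocytes these shares were 2.23% and 0.761%.

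Genes induced by tissue dissociation were summed as a control for handling. They reached 11553 CPM in saline and 14811 CPM in NP neutrophils, with a median log2 ratio of 0.32. There 0 of 15 were past 2-fold, against 5.65% of all tested genes higher and 1.09% lower. In monocytes, where 2.23% of all tested genes were at least 2-fold higher, 2 of 16 were. These were Hspa1a (16.5 and 36 CPM) and Hspa1b (8.96 and 26.6 CPM). The part of handling in the higher Il1b, Il1rn and Nfkbia levels was not tested.

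Across 14 classes in 2 libraries, 28 points in all, the genes whose log levels ran most like each member were ranked by Pearson correlation among 11827 genes. Nlrp12, which encodes a relative of NLRP3, had the highest correlation with Il1r2 (0.944), and Spry1 with Il1r1 (0.963). Rab32 ran most like Nlrp3 (0.930) and Cyba, a subunit of the phagocyte oxidase, most like Casp1 (0.902). Slc15a3 had the highest correlation with Il1rn (0.889) and the next highest after Rab32 with Nlrp3 (0.928). For Il1b it was 1600010M07Rik (0.929), for Il1a Hsd3b7 (0.898), for Il1rap Abtb1 (0.886) and for Casp4 Rab24 (0.860). The points share 2 libraries and neutrophil RNA, so these values describe the pattern and no more.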

How the data were processed

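Pooled lungs of saline and NP mice were profiled by droplet single-cell RNA sequencing, with 1 library per condition. The authors deposited raw UMI counts per gene and barcode, with 32285 genes in each matrix. The matrix header names Cell Ranger 4, while the submitters' processing notes name Cell Ranger 6.0, bcl2fastq and mm10. Gene positions came from GENCODE on GRCm38, in which 32158 gene IDs (99.6%) were found, and promoters from RefSeq GRCm38.p6.

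A barcode was taken as a cell when it held 500 to 5000 genes with a UMI and less than 7.5% of its UMIs came from mitochondrial genes. The clustering used log values after scaling each cell to 10000 UMIs, 2000 variable genes chosen without the members and listed genes, 30 principal components, 20 neighbors and the Leiden method at resolution 1, with both libraries together. Marker lists gave each cluster a first and a second class. A cluster stayed unnamed when 1 or more of its top 10 genes marked the second class and that class scored 0.75 of the first or higher, or when under 3 markers were detected. The limit of 1 gene was set after a cluster mixing C1q and dendritic cell genes had been seen. A cluster also stayed unnamed when more of its top 10 genes marked another class than marked the first. This was so for the Aif1-led and Emp2-led clusters, whose first classes were monocyte and endothelial cell. Clusters with no top gene of the first class stayed unnamed too if their median UMIs were low or the markers were weakly detected. The paper's own labels were not used. Scrublet called 1 saline cell (0.0115%), so it had not worked there, and 307 NP cells (3.68%), and doublets were kept.

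Levels are UMIs of a gene per 1000000 UMIs of its class. Exact Poisson intervals were used for levels, Clopper-Pearson intervals for shares and exact binomial intervals for ratios, all at 95%, and they cover counting error only. Counts under 3 were set to 3 in ratios. Members and other genes with at least 50 UMIs in a class were compared, with 2-fold as the limit. Genes other than the members are named when they belong to a list, had at least 200 UMIs and were past 2-fold in neutrophils or monocytes. Genes that lead a cluster, mark a cell type or handling, or ran most like a member by Pearson correlation of log2(CPM + 10) are named too. Free RNA was read from barcodes with under 50 UMIs. The lowest ratio among its marker genes set the most it could bring to a class, and this was subtracted as an alternative. The other alternatives varied the filters, clustering, naming, doublets and scaling. Classes with under 50 cells in a library were not compared. 1 larger unnamed class and 1 correlated gene are not reported here. The ratios and their intervals were run on simulated independent counts with known folds. Such counts hold neither UMIs clumped in single cells nor differences between pools of mice, so this run checks the calculation only. The members and lists were chosen with earlier results of these data known. Clustering ran in Python 3.11.15 with scikit-learn 1.9.0, leidenalg 0.10.2 and igraph 0.11.9, doublet scoring in scanpy 1.11.5, and intervals and figures with scipy 1.17.1, pandas 2.3.3, numpy 2.4.6 and matplotlib 3.10.9.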

Additional observations from a re-analysis of the deposited data

How the results depend on the processing

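No paired analysis was possible because each condition had 1 library, and leaving out a replicate was not possible for the same reason. Values are log2 ratios of NP over saline.

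In neutrophils Il1b (0.30) was −0.28 and Il1rn (0.71) was 0.18 with at least 800 detected genes, where fewer cells took the neutrophil name. Il1b was 0.25 with each cell's own highest marker score, 0.32 without Scrublet doublets, 0.29 without the highest 5% of Scrublet scores, 0.41 relative to the median of all genes, and 0.33 with totals without the 50 genes with the most UMIs. Il1rn was 0.82 relative to the median and 0.60 with cells thinned to 1000 UMIs. In monocytes Il1b (0.12) was 0.16 with at least 200 genes or a mitochondrial limit of 15%, 0.08 with a limit of 5% or with the members among the variable genes, 0.24 at Leiden resolution 2 or thinned, 0.21 with each cell's own score, 0.05 without Scrublet doublets and 0.18 as the mean of each cell's CPM. Over all cells Il1b (−0.34) was −0.27 with a mitochondrial limit of 5%, −0.36 without the highest 5% of scores or thinned, −0.71 relative to the median, −0.38 as the mean of cells, −0.55 without the 50 genes and −0.29 with free RNA subtracted. The cause of the other shifts was not tested. Leaving out Scrublet doublets removed 307 NP cells and 1 saline cell, so this setting changed almost only the NP library.

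The 1 member at least 2-fold higher in neutrophils, Il1a, became 0 with at least 800 genes, where its ratio of 2.41 was 0.88. It also became 0 with at least 200 UMIs required, with free RNA subtracted, without the cell with the most UMIs of the gene in each library and thinned, where it had too few UMIs to be compared. It became 2 at 1.5-fold, with Il1rn. The 1 member higher in monocytes, Il1rn, became 2 with Il1a at 1.5-fold, at resolution 2 and without the top cell. It became 0 thinned, where Il1rn had under 50 UMIs although its ratio stayed past 2-fold. Thinned to 1000 UMIs, Casp4 in NK cells reversed to −0.73 and Il1a in the C1qa-led cluster to −0.02. Il1rn in monocytes stayed between 1.38 and 2.44 over 17 alternatives and in the Aif1-led cluster between 1.27 and 2.61 over 9. Of the other alternative values, 1 for each gene, class and setting, 946 lay inside the interval of the main value and 164 outside it. These include differences in the share of cells with a UMI, in percentage points, judged by an approximate interval. Casp4 in NK cells and Il1a in the C1qa-led cluster were the only values past 2-fold that changed sign, while several nearer 0 did so, such as Il1b in endothelial cells (0.23) in 6 of 17 alternatives. The low UMI numbers of Il1a and Il1r1 limit what can be read from them in leukocytes.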
